A study of Mus musculus with 59 samples.

Results

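Gene expression in the prefrontal cortex of mice was compared between postnatal day 3 and postnatal days 6–7. The members are 14 of the 59 mice of the series, chosen by the age in their labels: 7 mice of day 3, and 7 mice of days 6–7, of which 5 were of day 6 and 2 of day 7. Each mouse gave 1 library of polyA RNA. All were of the strain C57Bl/6, and each age group held 4 control and 3 transgenic mice, 3 mice of line a and 4 of line b, and 4 males and 3 females. The transgenic mice carried a human bacterial artificial chromosome with GLUD2, a glutamate dehydrogenase gene of humans and other apes, and controls and transgenics were pooled with genotype and line as covariates. Genotype, line and sex were thus balanced between the ages. Control littermates of each line carried no transgene, and the labels do not say that any mice were pooled.

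In rodent cortex the first postnatal week falls between the end of neuron production and the main period of synapse formation. Neurons complete their migration and extend axons, precursors divide and turn into astrocytes and oligodendrocytes, and the first inhibitory and excitatory receptors change their subunits. Myelin, the insulating sheath made by oligodendrocytes, is laid down in the cortex later. Energy use shifts as pups grow on milk, which is rich in fat and delivers ketone bodies.

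Values are RPKM (reads scaled to transcript length and library depth), and changes are differences of log2(RPKM + 0.5) ± SE from limma, with p-values adjusted by Benjamini-Hochberg over all 15185 genes tested. A gene is said to have risen or fallen where the adjusted p was below 0.05. From the steps between low RPKM values each library was estimated to hold 9.09 to 12.1 M counted reads, so that 1 RPKM of a 2 kb transcript stood for about 21.2 reads. The human GLUD2 row, which checks the genotype labels, was listed at 3.33 to 3.81 RPKM in the 3 transgenic mice of day 3 and 4.22 to 5.29 RPKM in those of days 6–7, against 0.201 to 0.572 RPKM in the 8 controls. Libraries of the same age correlated across genes with Pearson's r of 0.971 to 0.983 at day 3 and 0.954 to 0.983 at days 6–7.

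Markers of neighbouring tissue differed between the groups. Summed RPKM of 4 genes of cortical projection neurons (Tbr1, Neurod6, Neurod2 and Emx1) was 113 to 196 at day 3 and 38.9 to 127 at days 6–7. The sum of 11 markers of thalamus and midbrain was 2.53 to 14.5 at day 3. At days 6–7 it was 97.1 in mouse 6 and 94.2 in mouse 35, 28.1 in mouse 34, 25.04 in mouse 8, 14.7 in mouse 33, 11.5 in mouse 7 and 2.72 in mouse 5. Tcf7l2, a transcription factor of thalamus, stood at 36.7 RPKM in mouse 6 and 22.9 in mouse 35, against at most 6.54 at day 3. Pou4f1, a transcription factor of habenula and midbrain, was at 5.26 RPKM in mouse 6 and 5.59 in mouse 35 and at most 0.0732 at day 3. Among 7 hypothalamic markers, vasopressin (Avp) reached 31.1 RPKM in mouse 7, and the sum was 56.2 in mouse 7, 39.6 in mouse 8 and 30.6 in mouse 33. In the other 4 mice of days 6–7 that sum was 1.09 to 5.25, and at day 3 it was 1.35 to 26.6, highest in mouse 1. Choroid plexus markers, led by Ttr, were above 280 in 6 of 7 mice of day 3 and in mice 6 and 34 of days 6–7, with 78.4 in mouse 33 and 1.2 to 2.43 in the other 4. Markers of striatum summed to 33.5 to 63.8 at day 3 and 14.1 to 80.6 at days 6–7, lowest in mice 34, 6 and 35.

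**Figure D1:**
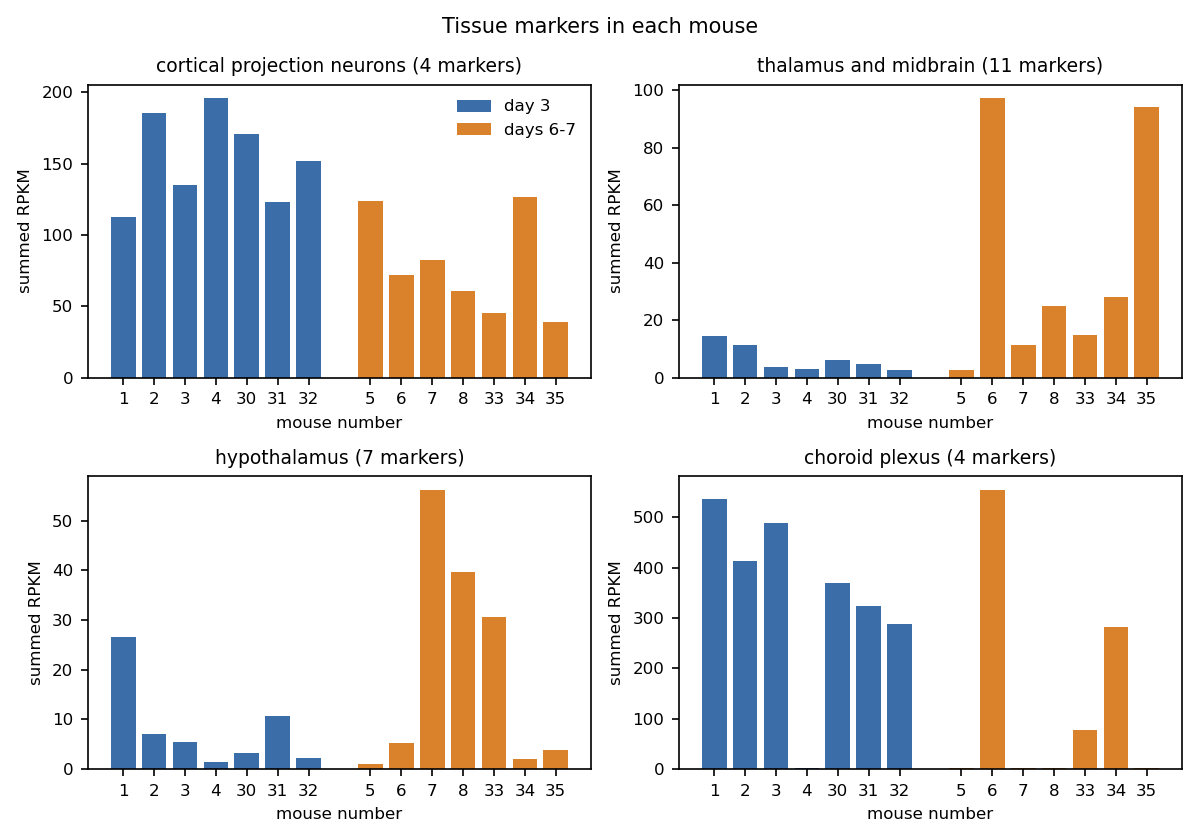
Bars give the summed RPKM of 4 sets of tissue markers in each of the 14 mice, blue for day 3 and orange for days 6–7, with the mouse number on the horizontal axis. Mice 6 and 35 stand at 97.1 and 94.2 for thalamus and midbrain, while every mouse of day 3 is at 14.5 or below.

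For this reason results are given from 3 fits. The first uses all 14 mice. The second adds the mean log2 level of the thalamus and midbrain markers and of the hypothalamus markers as covariates. It holds no covariate for choroid plexus, striatum or olfactory bulb. Its marker levels differed between the ages, so changes with age and with tissue are not fully told apart in it. The third leaves out mice 6, 7, 8, 33 and 35 of days 6–7. In these 5 the summed markers of thalamus, midbrain and hypothalamus were above the highest mouse of day 3. Mice 5 and 34 alone then stand for days 6–7. Both are males of day 6, mouse 5 a control of line b and mouse 34 a transgenic of line a. All females and all day 7 mice of that age group are thus left out. Mouse 34 was still above every mouse of day 3 in thalamus and midbrain markers alone, at 28.1 against at most 14.5. Mice 5 and 34 also differed in choroid plexus markers, at 1.2 and 282, and in striatum markers, at 80.6 and 14.1. The third fit is thus not free of neighbouring tissue. The fit with covariates and the fit with mice 5 and 34 alone were added after these values were seen. The fit with mice 5 and 34 alone has less precision because it holds fewer mice. It also differs from the fit of all 14 mice in age and sex. Whether smaller or lost changes in it come from tissue, age, sex or fewer mice was not tested.

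Of 15185 genes tested, 2736 (18%) were higher and 3828 (25.2%) lower at days 6–7 in the 14 mice. With libraries scaled by the median of their ratios the counts were 3226 and 3102, so the higher genes made up 41.7% of the calls as deposited and 51% after this scaling, and the excess of lower genes depends on the scaling. The median size of the called changes was 0.31, and 131 genes rose and 50 fell by at least 2-fold. The median change over all genes was −0.03. Of the genes tested, 7 reached the minimum of 0.5 RPKM only in the mice of days 6–7 and 2 only in those of day 3, and these 9 had to differ. In 867 genes (5.71%) every mouse of days 6–7 was above every mouse of day 3, and in 1356 genes (8.93%) every mouse was below. With the tissue markers as covariates 1743 genes (11.5%) were higher and 2453 (16.2%) lower, and with mice 5 and 34 alone 1060 (6.98%) and 1253 (8.25%). Counts of list members below are to be read against the shares over all genes in the same fit. Of the 6564 genes called in the 14 mice, 54.05% passed in the same direction with the covariates and 31.1% with mice 5 and 34 alone, in fits that share mice with the first. These libraries hold RNA of whole tissue, so fewer cells of a type and less RNA per cell cannot be told apart in any of the results.

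**Figure D2:**
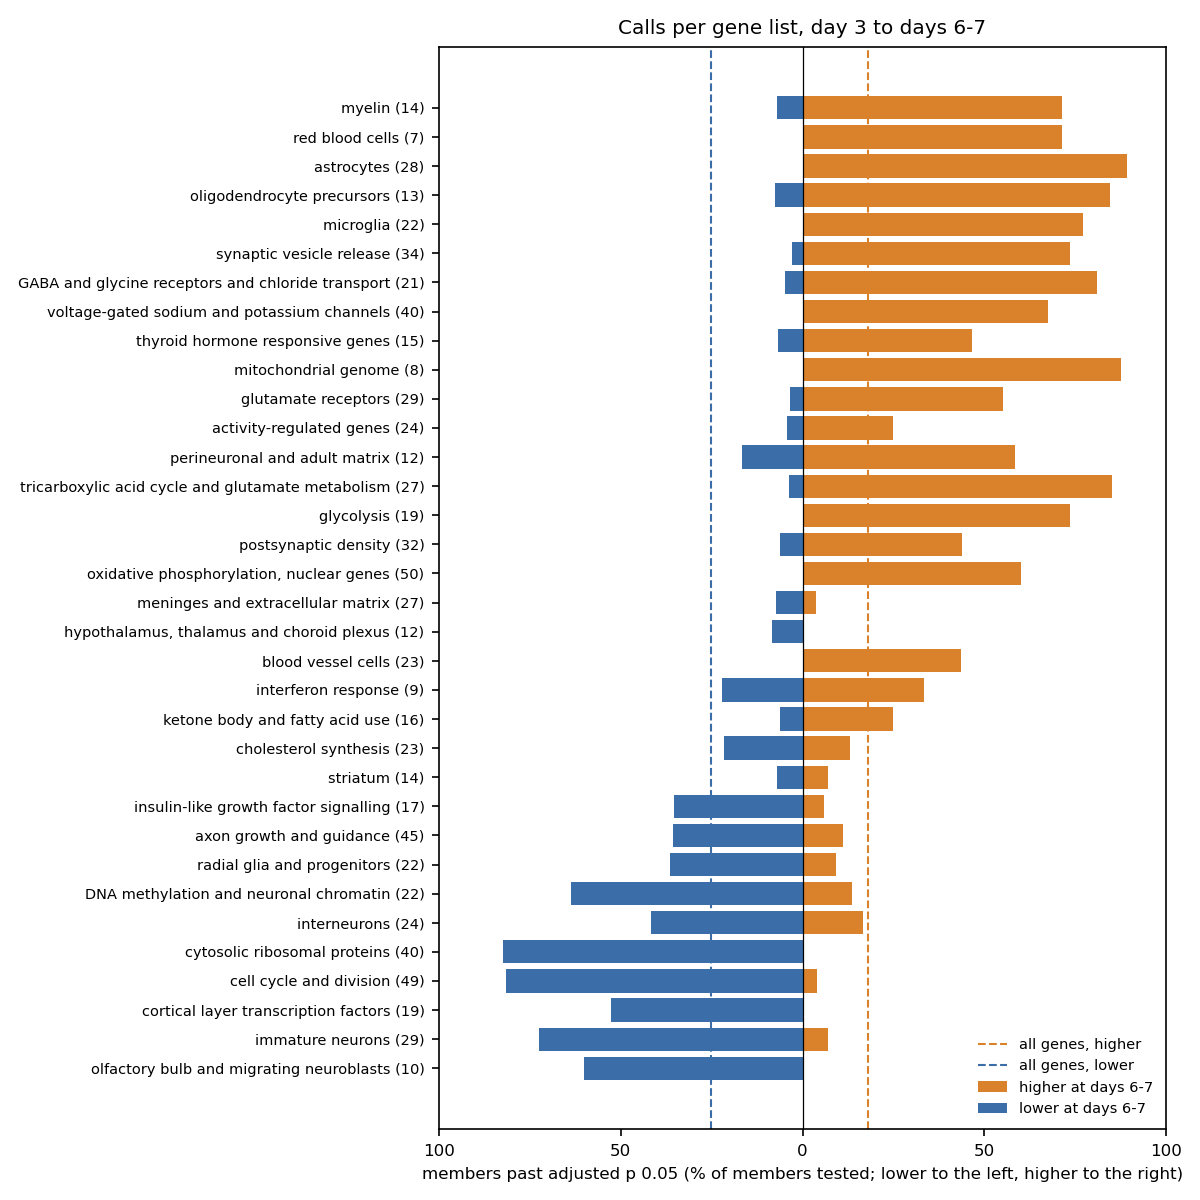
For each of 34 gene lists, bars give the percentage of tested members past adjusted p 0.05, lower at days 6–7 to the left in blue and higher to the right in orange, with the number tested in parentheses. Dashed lines mark the shares over all genes, 25.2% lower and 18% higher. Lists are ordered by median change. Olfactory bulb and neuroblasts, immature neurons, layer factors, cell division and ribosomal proteins lie at the low end. Myelin, red blood cells, astrocytes, oligodendrocyte precursors, microglia and synaptic vesicle release lie at the high end. The lists of energy metabolism are among those with a positive median.

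Genes of dividing cells fell together. Of 49 tested members of the cell cycle list, 40 were lower and 2 higher, with a median change of −0.39, against 25.2% and 18% of all genes. Top2a, the topoisomerase that untangles DNA at mitosis, measured 3.9 to 6.08 RPKM (median 4.87) at day 3 and 2.05 to 3.61 RPKM (median 3.18) at days 6–7, a change of −0.65 ± 0.07 (adjusted p = 3.58e-05). No mouse of days 6–7 reached the lowest mouse of day 3. Rrm2, a subunit of the ribonucleotide reductase that supplies DNA precursors, stood at 5.53 to 9.42 RPKM (median 7.83) at day 3 and 3.01 to 5.17 RPKM (median 4.31) at days 6–7, also without overlap. Cdk1, the kinase that drives entry into mitosis, changed by −0.53 ± 0.07 and Tpx2, a spindle assembly factor, by −0.65 ± 0.08. Mki67, the marker of cycling cells, was at 4.04 to 6.37 RPKM (median 5.29) at day 3 and 1.92 to 4.31 RPKM (median 3.36) at days 6–7, and the highest mouse of days 6–7 lay just above the lowest of day 3. The 2 members that rose were Ccne1 (0.60) and Ccnd1 (0.15), both cyclins of the G1 phase. The fit with tissue covariates called 1 member higher and 24 lower (median −0.34), and the fit with mice 5 and 34 alone called 1 and 13 (median −0.28). Top2a had a median of 1.31 RPKM at days 10–12.

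The promoters of the 4 lower cell cycle genes with the smallest p and a sequence in RefSeq (build GRCm38.p6) are shown. Many promoters of genes of the G2 and M phases are known to carry CCAAT boxes, which bind NF-Y. Many also carry the CHR element, which binds the DREAM complex. The 4 genes were picked by their p and not by phase, so they need not be genes of the G2 and M phases. Each run is the 250 bases before the annotated start, 5′ to 3′ on the gene's strand, with the box CCAAT, the CHR letters TTTGAA and the reverse complements of both in capitals.
Top2a, chr11:99024190-99024439, minus strand: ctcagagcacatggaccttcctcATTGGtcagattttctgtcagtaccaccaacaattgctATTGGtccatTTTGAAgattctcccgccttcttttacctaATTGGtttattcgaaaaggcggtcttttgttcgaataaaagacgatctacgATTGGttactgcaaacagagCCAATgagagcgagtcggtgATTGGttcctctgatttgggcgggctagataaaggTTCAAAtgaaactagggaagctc
Rrm2, chr12:24708004-24708253, plus strand: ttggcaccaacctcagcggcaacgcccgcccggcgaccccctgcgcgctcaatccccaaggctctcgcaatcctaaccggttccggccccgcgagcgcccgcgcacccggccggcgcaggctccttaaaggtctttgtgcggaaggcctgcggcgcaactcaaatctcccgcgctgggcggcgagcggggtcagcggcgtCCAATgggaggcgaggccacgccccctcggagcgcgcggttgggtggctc
Cdk1, chr10:69352913-69353162, minus strand: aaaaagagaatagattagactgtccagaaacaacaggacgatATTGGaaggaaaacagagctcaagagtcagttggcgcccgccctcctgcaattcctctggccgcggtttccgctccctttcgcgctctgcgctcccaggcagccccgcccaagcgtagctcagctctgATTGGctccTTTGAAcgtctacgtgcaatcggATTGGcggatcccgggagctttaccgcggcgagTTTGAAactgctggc
Rrm1, chr7:102441445-102441694, plus strand: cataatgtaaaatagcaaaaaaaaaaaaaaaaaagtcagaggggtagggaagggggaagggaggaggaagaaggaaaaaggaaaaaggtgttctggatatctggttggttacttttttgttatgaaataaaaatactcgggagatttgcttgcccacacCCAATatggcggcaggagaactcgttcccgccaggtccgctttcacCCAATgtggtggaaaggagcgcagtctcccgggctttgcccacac
Top2a holds 6 CCAAT boxes and 2 CHR matches on either strand, Cdk1 3 and 2, Rrm1 2 and 0, and Rrm2 1 and 0. CCAAT on either strand occurred in 31 of 39 members of the list with a promoter sequence (79.5%), against 37.5% of all 27025 genes with one and 40.1% of those tested here. TTTGAA on either strand was found in 30.8% of the list, 18.3% of all genes and 12.2% of those tested. Positions of the motifs were not compared between the runs, and a match describes letters in this window, not binding.

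Neural progenitor genes were mixed. Of 22 tested members of the radial glia list 8 fell and 2 rose (median −0.14), against 25.2% and 18% of all genes. Nes, the intermediate filament of neural stem cells, measured 7.87 to 12.5 RPKM (median 10.9) at day 3 and 4.93 to 6.41 RPKM (median 5.49) at days 6–7, a change of −0.85 ± 0.07 (adjusted p = 4.49e-06). Tnc, a matrix glycoprotein around progenitors and young astrocytes, fell by 0.86, and Dll1, a Notch ligand, by 0.43. Ptprz1, a receptor phosphatase that is also made by oligodendrocyte precursors, rose by 0.40, and so did the glutamate transporter Slc1a3 (0.22). Adding the tissue covariates left 2 higher and 11 lower with a median of −0.28, and mice 5 and 34 alone gave 0 and 3 with a median of −0.23.

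Genes of young, migrating neurons gave many of the largest falls. In the immature neuron list 21 of 29 tested members fell and 2 rose, with a median change of −0.55. Dcx, the microtubule protein doublecortin of migrating neurons, measured 93.1 to 107 RPKM (median 103) at day 3 and 23.2 to 74.7 RPKM (median 42.6) at days 6–7, a change of −1.15 ± 0.19 (adjusted p = 0.000398). Igfbpl1, an insulin-like growth factor binding protein-like gene of newborn neurons, was at 11.4 to 25.3 RPKM (median 18.7) at day 3 and 2.64 to 6.75 RPKM (median 4.08) at days 6–7, a change of −1.88 ± 0.17. The age groups did not overlap for either gene. Sox11 and Sox4, paired transcription factors of the postmitotic neuron programme, changed by −1.19 ± 0.09 and −1.04. Draxin, a secreted axon guidance factor, measured 12.6 to 19.7 RPKM (median 19.1) at day 3 and 4.56 to 11.5 RPKM (median 5.9) at days 6–7. Tubb2a, a tubulin, and Rnd2, a small GTPase of migration, were the 2 that rose (0.23 and 0.55). In the other 2 fits the list had 2 higher and 15 lower (median −0.34, tissue covariates) and 2 higher and 10 lower (median −0.26, mice 5 and 34 alone). Dcx kept its call in both, at −0.61 ± 0.13 (adjusted p = 0.0061) and −0.56 ± 0.07 (adjusted p = 0.00485), about a factor of 2 smaller on the log2 scale. In the plot of RPKM by mouse, mice 5 and 34 have the highest Dcx of days 6–7, 63.6 and 74.7 RPKM.

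The remaining largest falls included Gpc2, a glypican of growing axons, at 19.5 to 28.5 RPKM (median 23.3) at day 3 and 4.84 to 11.6 RPKM (median 6.1) at days 6–7, and Mex3a, an RNA-binding protein of progenitors, at 22.9 to 30 RPKM (median 24.7) at day 3 and 5.62 to 16 RPKM (median 10.5) at days 6–7. Both were without overlap and called in all 3 fits. Cd24a, a surface protein of young neurons, changed by −1.29 ± 0.24 and by −0.60 ± 0.15 (adjusted p = 0.0143) with the covariates. Inhba, the activin A subunit, changed by −1.27 ± 0.25 in 14 mice and by −0.36 ± 0.17 (adjusted p = 0.195) with mice 5 and 34 alone. Gm23615, annotated as a small nucleolar RNA, was at 0 in several libraries of both ages and its call was lost in both other fits. Rxrg, a retinoid receptor of striatum, changed by −1.38 ± 0.46, and its call was lost in both as well.

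Of 45 axon guidance genes 16 fell, 5 rose and 24 did not pass (median −0.09). Over all genes 25.2% fell and 18% rose. Plxna3, a semaphorin co-receptor, measured 26.5 to 31 RPKM (median 28.2) at day 3 and 18.4 to 24.3 RPKM (median 20) at days 6–7, a change of −0.48 ± 0.05. Islr2, a membrane protein needed for axon extension, was at 89.9 to 124 RPKM (median 104) at day 3 and 38.2 to 75.2 RPKM (median 58.3) at days 6–7, with no overlap. The ephrin ligand Efnb1 changed by −0.60 ± 0.09 and the ephrin receptor Epha3 by −0.64 ± 0.08. Those that rose were Sema5a (0.59), Slit2 (0.40), Epha5, Slit1 and Sema6a. Higher and lower members numbered 2 and 13 with the tissue covariates (median −0.10), and 2 and 9 with mice 5 and 34 alone (median −0.13).

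Transcription factors of cortical layers had fewer calls in the other fits. In 14 mice 10 of 19 layer factors fell and 0 rose (median −0.43). Tbr1, of deep-layer neurons, measured 14 to 27.8 RPKM (median 21.1) at day 3 and 5.63 to 18.3 RPKM (median 10.8) at days 6–7, a change of −0.89 ± 0.25 (adjusted p = 0.0109). Mice 5 and 7 stood at 18.3 and 15.1 RPKM, within the range of day 3, mouse 34 at 13.8, just below it, and mice 6 and 35 lowest at 6.35 and 5.63. With the covariates the change was −0.14 ± 0.14 (adjusted p = 0.478), and with mice 5 and 34 alone −0.33 ± 0.22 (adjusted p = 0.352). After the tissue covariates were added 0 members passed as higher and 2 as lower (median −0.23), against 0 and 1 with mice 5 and 34 alone (median −0.20). Sox5 and Cux1 passed with the covariates, at −0.40 ± 0.09 (adjusted p = 0.00593) and −0.34 ± 0.09 (adjusted p = 0.0192), and of these 2 only Cux1 also passed with mice 5 and 34 alone.

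Among 24 interneuron genes 10 fell and 4 rose, against 25.2% and 18% of all genes. The lower ones included the homeobox genes Dlx1, Dlx2, Dlx5 and Dlx6 of young inhibitory neurons, with Dlx5 at 4.6 to 11 RPKM (median 7.87) at day 3 and 0.54 to 7 RPKM (median 5.19) at days 6–7 and lowest in mice 6 and 35. Vip, the peptide of a class of interneurons, measured 0.439 to 1.81 RPKM (median 1.04) at day 3 and 1.35 to 3.02 RPKM (median 2) at days 6–7, and Gad2, an enzyme of GABA synthesis, rose by 0.75. Calb2 (calretinin) changed by 1.16 and Npy by −1.04. With the tissue markers as covariates 4 passed as higher and 0 as lower (median −0.11), and with mice 5 and 34 alone at days 6–7 1 and 6 (median −0.19). Vip kept its call in both, at 1.11 ± 0.15 (adjusted p = 0.000471) and 1.24 ± 0.19 (adjusted p = 0.0068). In the list of olfactory bulb and migrating neuroblasts 6 of 10 fell (median −0.65), and 0 and 1 did in the other fits.

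**Figure D3:**
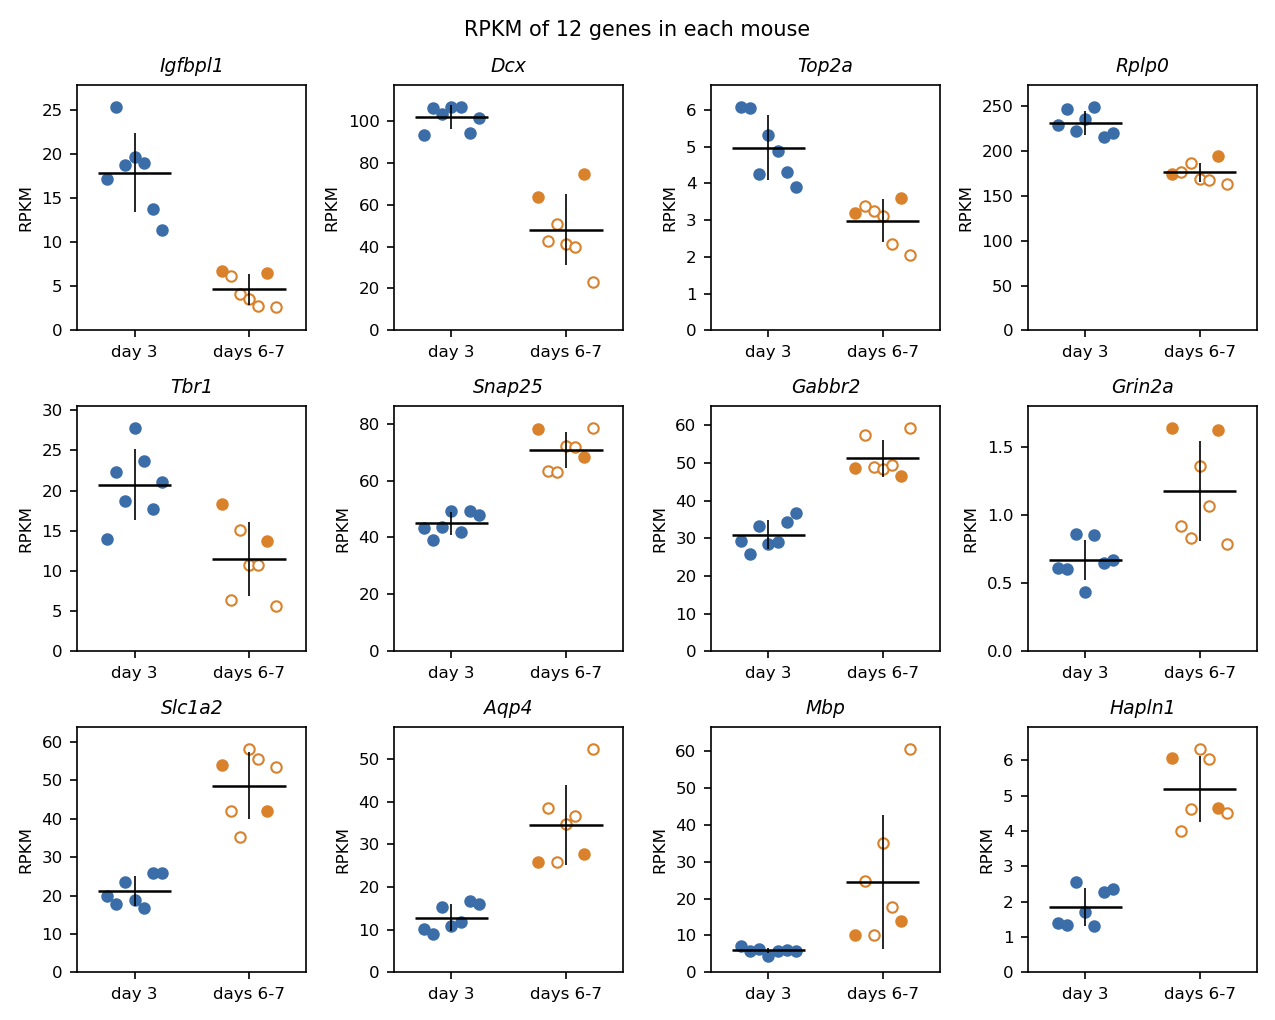
Points give RPKM of 12 genes in each mouse, blue for day 3 and orange for days 6–7. Open points mark the 5 mice of days 6–7 above all mice of day 3 in summed thalamus, midbrain and hypothalamus markers. Horizontal lines are means of 7 mice and vertical lines 1 SD. Tbr1 of the filled mice lies within or just below the range of day 3, while Igfbpl1, Top2a, Snap25, Gabbr2, Slc1a2, Aqp4, Mbp and Hapln1 of all mice of days 6–7 lie outside it.

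Receptors for glutamate and GABA rose. Of 29 glutamate receptor genes and auxiliary subunits 16 were higher and 1, the kainate receptor Grik3, lower (median 0.30). Grin1, the obligatory subunit of NMDA receptors, measured 13.1 to 15.7 RPKM (median 15.2) at day 3 and 19.3 to 27.5 RPKM (median 22.9) at days 6–7, a change of 0.65 ± 0.05 (adjusted p = 4.1e-06), with no overlap. The 2 subunits known for their exchange during maturation were followed in each mouse. Grin2a, of mature receptors, was at 0.437 to 0.863 RPKM (median 0.653) at day 3 and 0.788 to 1.64 RPKM (median 1.07) at days 6–7, a change of 0.50 ± 0.14, and Grin2b, of early receptors, at 12.9 to 17 RPKM (median 15.1) at day 3 and 6.61 to 17.6 RPKM (median 13.3) at days 6–7, a change of −0.24 ± 0.17 (adjusted p = 0.296). The Grin2b value turned sign without passing the threshold in the other fits, to 0.23 ± 0.15 (adjusted p = 0.279) and 0.19 ± 0.09 (adjusted p = 0.181), whereas Grin2a was at 0.74 ± 0.18 (adjusted p = 0.0112) and 0.87 ± 0.17 (adjusted p = 0.0149). Cacng2 and Cacng3, which anchor AMPA receptors at synapses, rose by 0.43 and 0.66, and Grm7, a presynaptic metabotropic receptor, by 0.43. The fit with tissue covariates called 10 members higher and 0 lower (median 0.19), and the fit with mice 5 and 34 alone called 7 and 0 (median 0.19).

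In the list of GABA and glycine receptors and chloride transport 17 of 21 rose and 1 fell (median 0.38). Gabbr2, a GABA-B receptor subunit, measured 26 to 36.8 RPKM (median 29.2) at day 3 and 46.5 to 59.3 RPKM (median 49) at days 6–7, a change of 0.72 ± 0.07 (adjusted p = 1.58e-05). All 7 mice of days 6–7 lay above day 3, and the gene had a median of 68.8 RPKM at days 10–12. Its partner Gabbr1 changed by 0.38 ± 0.06. Glrb, the glycine receptor beta subunit, changed by 0.72 ± 0.07. The balance of 2 chloride transporters sets whether GABA excites or inhibits a neuron: Slc12a5 (KCC2) exports chloride and Slc12a2 (NKCC1) imports it. Slc12a5 measured 27.6 to 40.3 RPKM (median 33.8) at day 3 and 44.1 to 85.9 RPKM (median 63.8) at days 6–7, a change of 0.87 ± 0.14, and Slc12a2 8.09 to 9.11 RPKM (median 8.48) at day 3 and 7.15 to 8.06 RPKM (median 7.43) at days 6–7, a change of −0.17 ± 0.04 and the only member that fell. Neither overlapped between ages, but with mice 5 and 34 alone neither passed, at 0.44 ± 0.14 (adjusted p = 0.069) and −0.18 ± 0.06 (adjusted p = 0.0841). Adding the tissue covariates left 14 higher and 1 lower with a median of 0.29, and mice 5 and 34 alone gave 7 and 0 with a median of 0.26.

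Channels that carry action potentials changed in 1 direction: 27 of 40 sodium and potassium channel genes rose and 0 fell (median 0.38). Scn2b, a sodium channel beta subunit, measured 3.97 to 5.87 RPKM (median 4.68) at day 3 and 7.33 to 14.1 RPKM (median 11.5) at days 6–7, a change of 1.07 ± 0.08 (adjusted p = 2.74e-06). Kcna2, an axonal potassium channel, was at 2.94 to 4.43 RPKM (median 3.73) at day 3 and 5.28 to 7.41 RPKM (median 6.77) at days 6–7, and Hcn2, a pacemaker channel, at 10.4 to 11.6 RPKM (median 11.2) at day 3 and 14.7 to 19.6 RPKM (median 16.7) at days 6–7. These 3 genes did not overlap between ages. In the other 2 fits the list had 24 higher and 1 lower (median 0.36, tissue covariates) and 21 higher and 0 lower (median 0.39, mice 5 and 34 alone).

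Genes of the presynaptic terminal rose too. In the list of synaptic vesicle release 25 of 34 rose and 1 fell, the early synaptotagmin Syt4 (−0.37), with a median of 0.46. Snap25, a SNARE protein of vesicle fusion, measured 39.3 to 49.5 RPKM (median 43.8) at day 3 and 63 to 78.5 RPKM (median 71.7) at days 6–7, a change of 0.65 ± 0.04 (adjusted p = 8.96e-07). Vamp2, the SNARE on the vesicle, was at 109.6 to 137 RPKM (median 124) at day 3 and 154 to 181 RPKM (median 177) at days 6–7. Syn1, a synapsin that tethers vesicles, changed by 0.57 ± 0.05 and Rab3a, a vesicle GTPase, by 0.45 ± 0.04. Slc17a6, the vesicular glutamate transporter that prevails in thalamus, rose by 1.32 in 14 mice, and Slc17a7, that of cortex, by 0.72. Syt2, a calcium sensor of fast release, measured 0.467 to 0.933 RPKM (median 0.659) at day 3 and 0.9 to 12.2 RPKM (median 3.03) at days 6–7, highest in mouse 35, and changed by 0.85 ± 0.27 (adjusted p = 0.0709) with mice 5 and 34 alone. Higher and lower members numbered 26 and 1 with the tissue covariates (median 0.42), and 22 and 0 with mice 5 and 34 alone (median 0.41).

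Of 32 genes of postsynaptic scaffolds and their partners, 14 were higher and 2 lower (median 0.20). Dlgap3, which links scaffolds in the postsynaptic density, changed by 0.57 ± 0.05, Shank3 by 0.40 ± 0.04 and the nuclear kinase Camk4 by 0.62 ± 0.10. Homer3 and Dlgap4 fell (−0.42 and −0.26). After the tissue covariates were added 19 members passed as higher and 1 as lower (median 0.23), against 15 and 1 with mice 5 and 34 alone (median 0.26).

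Of 24 genes that respond to neuronal activity 6 rose and 1 fell, against 18% and 25.2% of all genes, so the share that rose was near that of all genes. Nptx1, a neuronal pentraxin that clusters glutamate receptors, measured 5.78 to 8.04 RPKM (median 6.59) at day 3 and 8.44 to 10.3 RPKM (median 9.15) at days 6–7 without overlap, and passed in all 3 fits. Vgf, a secreted neuropeptide precursor, changed by 1.24 ± 0.21, Nptx2 by 1.01 ± 0.18 and Pcsk1, a prohormone convertase, by 0.77 ± 0.16, and these 3 did not pass with mice 5 and 34 alone. With the tissue markers as covariates 12 passed as higher and 0 as lower (median 0.42), and with mice 5 and 34 alone at days 6–7 2 and 0 (median 0.31).

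Nearly all astrocyte genes rose. Of 28 members 25 were higher and 0 lower, with a median of 0.86. Slc1a2, the main glutamate uptake transporter, measured 16.8 to 26 RPKM (median 19.9) at day 3 and 35.2 to 58.2 RPKM (median 53.3) at days 6–7, a change of 1.18 ± 0.07 (adjusted p = 1.27e-06). Aqp4, the water channel of astrocyte endfeet, was at 8.93 to 16.7 RPKM (median 11.8) at day 3 and 25.8 to 52.4 RPKM (median 34.7) at days 6–7, a change of 1.39 ± 0.13. Every mouse of days 6–7 exceeded every mouse of day 3 for both. Gfap, the astrocyte filament, was at 9.06 to 24.5 RPKM (median 15.5) at day 3 and 26.6 to 51 RPKM (median 43.9) at days 6–7, and Sparcl1, a secreted protein that promotes synapse formation, at 152 to 233 RPKM (median 196) at day 3 and 302 to 439.7 RPKM (median 333) at days 6–7. Acsbg1, a fatty acid activating enzyme, changed by 0.69 ± 0.06. The fit with tissue covariates called 22 members higher and 1 lower (median 0.55), and the fit with mice 5 and 34 alone called 16 and 0 (median 0.56). Gfap did not pass with mice 5 and 34 alone, at 0.90 ± 0.34 (adjusted p = 0.114). Slc1a2 had a median of 177 RPKM at days 10–12, while Aqp4 had a median of 28.5 RPKM at days 10–12.

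Several of the 12 largest rises are also genes of glia. Gpr37l1, a receptor of astrocytes, measured 5.1 to 8.7 RPKM (median 6) at day 3 and 18.5 to 34.7 RPKM (median 24.7) at days 6–7, a change of 1.89 ± 0.13, and S100b, a calcium-binding protein of astrocytes and oligodendrocyte precursors, 1.62 to 3.4 RPKM (median 2.98) at day 3 and 5.19 to 19.2 RPKM (median 12.6) at days 6–7. Both passed in all 3 fits. Myoc, myocilin, was at 0 to 0.313 RPKM (median 0.103) at day 3 and 0.843 to 6.32 RPKM (median 3.95) at days 6–7, a change of 2.45 ± 0.35. It was tested only because all mice of days 6–7 reached 0.5 RPKM, so its call is no evidence of its own, and its size rests on the pseudocount. Neuronal genes among the 12 were Lynx1, Nefh and Cntnap1, the last of the axonal junction beside nodes of Ranvier. Lynx1, a brake on nicotinic receptors, was at 6.07 to 11 RPKM (median 8.05) at day 3 and 22.1 to 43.1 RPKM (median 28.9) at days 6–7. Nefh, the heavy neurofilament, was at 1.36 to 2.28 RPKM (median 1.88) at day 3 and 3.96 to 17.8 RPKM (median 6.4) at days 6–7. Lgi3 was also among the 12. Cntnap1 changed by 1.76 ± 0.24 and Lgi3 by 1.74 ± 0.25. These 4 passed in all 3 fits too. Sncg (gamma-synuclein) and Mab21l2, a midbrain marker, changed by 2.14 ± 0.52 and 1.84 ± 0.55 in 14 mice and passed in neither other fit.

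Oligodendrocyte genes rose from low levels. Among 13 precursor genes 11 were higher and 1, the kinase Fyn, lower, with a median of 0.50. Bcas1, of oligodendrocytes that begin to myelinate, measured 2 to 3.74 RPKM (median 3.04) at day 3 and 7.24 to 18.5 RPKM (median 11.8) at days 6–7, a change of 1.70 ± 0.19 (adjusted p = 3.68e-05). Gpr17, of committed precursors, was at 7.43 to 12 RPKM (median 10.1) at day 3 and 13.6 to 30.2 RPKM (median 23.6) at days 6–7. Enpp6, of newly formed oligodendrocytes, was at 0.0749 to 0.325 RPKM (median 0.209) at day 3 and 0.639 to 1.87 RPKM (median 1.49) at days 6–7, and reached the minimum only at days 6–7, so without it 10 of 12 were higher. C1ql1 changed by 1.38 ± 0.20. Adding the tissue covariates left 8 higher and 1 lower with a median of 0.37, and mice 5 and 34 alone gave 6 and 0 with a median of 0.32.

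In the myelin list 10 of 14 tested genes rose and 1 fell (median 1.11). Fa2h, a fatty acid hydroxylase, reached the minimum only at days 6–7, and without it 9 of 13 rose. Mbp, myelin basic protein, measured 4.55 to 7.22 RPKM (median 5.9) at day 3 and 10.2 to 60.5 RPKM (median 17.6) at days 6–7, a change of 1.70 ± 0.34 (adjusted p = 0.00148). The highest mouse of days 6–7 was mouse 35, at 60.5 RPKM, and the lowest, mouse 5, at 10.2, was above all of day 3. With the covariates the change was 0.66 ± 0.17 (adjusted p = 0.0138), and with mice 5 and 34 alone 0.93 ± 0.13 (adjusted p = 0.00544). Mag, an adhesion protein of the sheath, was at 0.477 to 1.1 RPKM (median 0.774) at day 3 and 1.67 to 18.9 RPKM (median 3.22) at days 6–7, also highest in mouse 35, and changed by 1.96 ± 0.43, 0.66 ± 0.26 (adjusted p = 0.0766) and 0.98 ± 0.16 (adjusted p = 0.00862) in the 3 fits. Cnp, a phosphodiesterase of oligodendrocytes, changed by 1.22 ± 0.19 and Tspan2 by 1.13 ± 0.12. Mog, on the outer surface of myelin, was the member that fell. It measured 4.96 to 6.73 RPKM (median 6.03) at day 3 and 3.1 to 5.88 RPKM (median 4.14) at days 6–7 and had a median of 15.1 RPKM at days 10–12. In the other 2 fits the list had 6 higher and 1 lower (median 0.50, tissue covariates) and 10 higher and 1 lower (median 0.66, mice 5 and 34 alone).

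Mir219a-2, a row for polyA RNA at the locus of a microRNA hairpin, was among the 12 largest rises. The mature microRNA from this hairpin, known for promoting oligodendrocyte differentiation, is shown as RefSeq (GRCm38.p6) gives it, chr2:29845689-29845709 on the minus strand, with its seed (bases 2 to 8) in capitals.
mmu-miR-219a-5p: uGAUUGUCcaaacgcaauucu
The row was at 0 to 1.98 RPKM (median 0) at day 3 and 0.863 to 4.59 RPKM (median 2.69) at days 6–7, a change of 1.94 ± 0.40. RPKM are scaled to length, so 1 RPKM of a row as short as a hairpin stands for far fewer reads than in a 2 kb transcript. The values of this row thus rest on few reads. It did not pass in the other fits, at 1.06 ± 0.42 (adjusted p = 0.082) and 0.99 ± 0.58 (adjusted p = 0.286), and the mature microRNA itself was not measured.

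Microglial genes rose as well: 17 of 22 were higher and 0 lower (median 0.47). P2ry12, the purinergic receptor of resting microglia, measured 1.91 to 3.52 RPKM (median 2.45) at day 3 and 3.97 to 6.69 RPKM (median 5.53) at days 6–7, a change of 0.92 ± 0.12 (adjusted p = 9.42e-05). Tmem119, a marker of maturing microglia, was at 0.869 to 1.46 RPKM (median 1.29) at day 3 and 1.76 to 2.63 RPKM (median 1.95) at days 6–7. Neither overlapped between ages. Csf1r, the receptor for their survival factor, changed by 0.56 ± 0.09. Both passed in all 3 fits, and Csf1r did not with mice 5 and 34 alone. Higher and lower members numbered 10 and 0 with the tissue covariates (median 0.36), and 3 and 0 with mice 5 and 34 alone (median 0.38).

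Vessel genes rose in 10 of 23 cases and fell in 0 (median 0.13). Rgs5, of pericytes, measured 19 to 21.2 RPKM (median 20.4) at day 3 and 23.7 to 28.8 RPKM (median 26.1) at days 6–7 without overlap. Slco1a4, an organic anion transporter of brain endothelium, was at 0.536 to 1.44 RPKM (median 1.27) at day 3 and 1.46 to 2.69 RPKM (median 2.08) at days 6–7. After the tissue covariates were added 2 members passed as higher and 1 as lower (median 0.06), against 1 and 0 with mice 5 and 34 alone (median 0.08), so that most of these calls were lost. Haemoglobin genes were higher, and 5 of 7 tested red cell genes rose. Hbb-bs was at 18.4 to 38.2 RPKM (median 27.4) at day 3 and 33 to 115 RPKM (median 57.4) at days 6–7, and near-identical haemoglobin copies may share reads. Car2, the fifth, is also made by oligodendrocytes. With the tissue markers as covariates 4 passed as higher and 0 as lower (median 0.97), and with mice 5 and 34 alone at days 6–7 3 and 0 (median 1.06).

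Matrix genes of the adult kind rose while some juvenile ones fell. Of 12 genes of perineuronal and adult matrix 7 rose and 2 fell (median 0.28). Hapln1, a link protein that binds hyaluronan to proteoglycans, measured 1.3 to 2.55 RPKM (median 1.72) at day 3 and 4 to 6.33 RPKM (median 4.67) at days 6–7, a change of 1.29 ± 0.09 (adjusted p = 2.61e-06). Bcan, the proteoglycan brevican, was at 46.4 to 57 RPKM (median 52) at day 3 and 64.5 to 101 RPKM (median 76) at days 6–7, and Crtac1 changed by 0.77 ± 0.12. Has3, a hyaluronan synthase, was at 5.21 to 6.57 RPKM (median 5.52) at day 3 and 1.76 to 4.19 RPKM (median 2.79) at days 6–7, and Vcan, versican of the juvenile matrix, fell with it (−0.94). Hapln1 changed by as much in the other fits, at 1.41 ± 0.11 (adjusted p = 3.48e-05) and 1.38 ± 0.13 (adjusted p = 0.00201). The fit with tissue covariates called 6 members higher and 2 lower (median 0.18), and the fit with mice 5 and 34 alone called 4 and 2 (median 0.20).

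**Figure D4:**
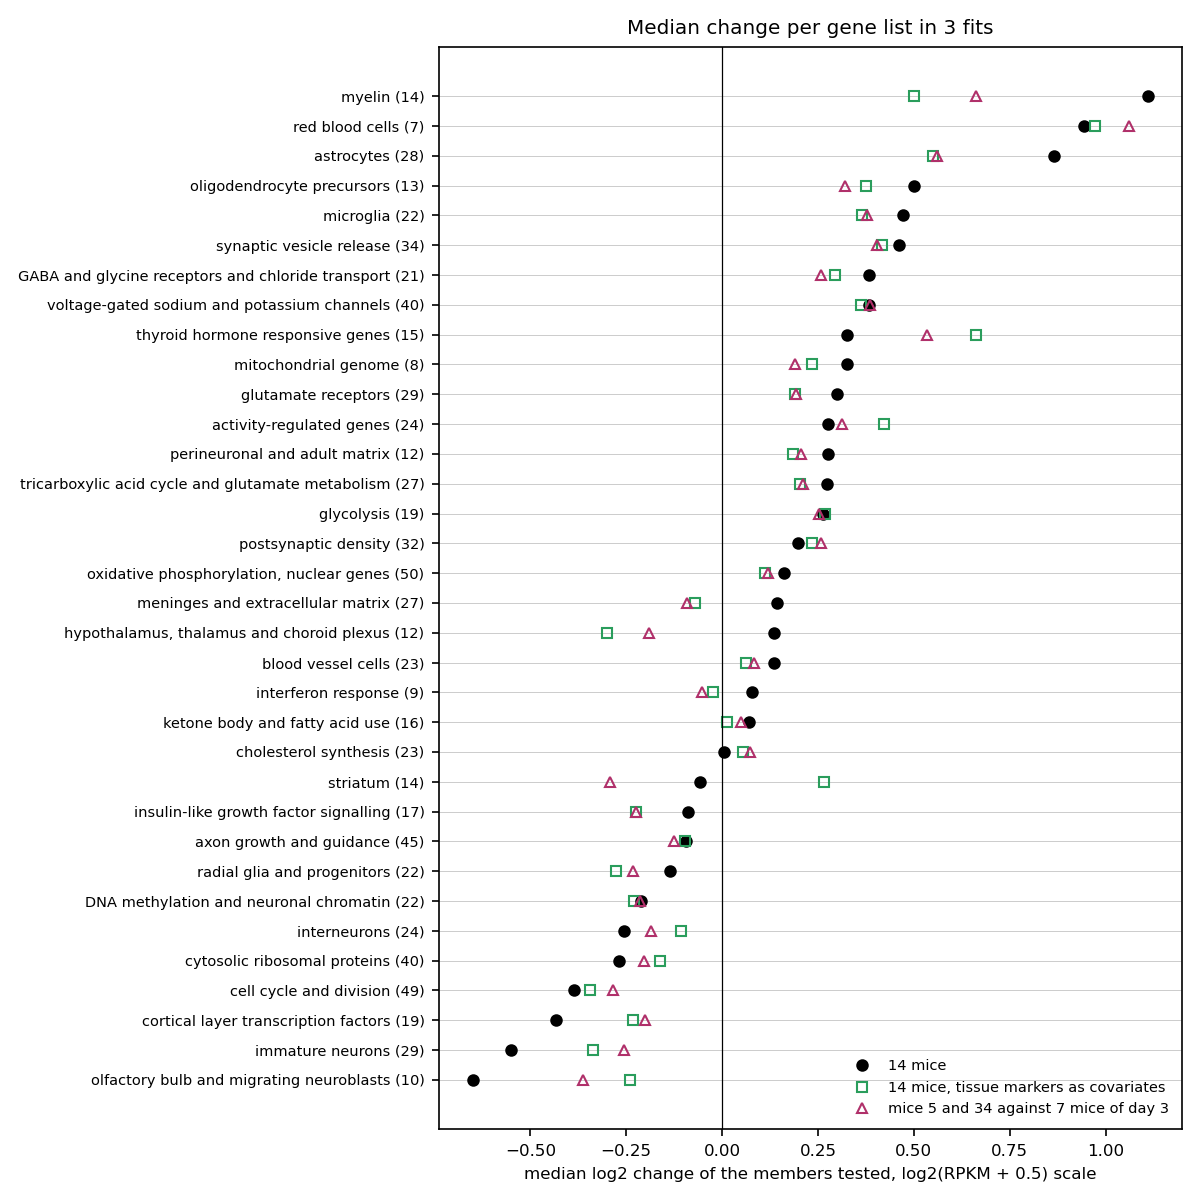
Points give the median log2 change of the tested members of each list on the log2(RPKM + 0.5) scale, as filled circles for 14 mice, squares with the tissue markers as covariates and triangles for mice 5 and 34 against day 3. The order of the lists at both ends stays similar, with smaller medians for myelin, astrocytes, immature neurons and layer factors in both other fits, and the meninges, interferon and hypothalamus lists change sign in both, the striatum list with the covariates.

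Energy metabolism rose by small steps. Of 27 genes of the tricarboxylic acid cycle and glutamate metabolism 23 were higher and 1, Idh2, lower (median 0.27). Mdh1, cytosolic malate dehydrogenase, measured 88.6 to 98.2 RPKM (median 97.1) at day 3 and 114 to 144 RPKM (median 132) at days 6–7, a change of 0.44 ± 0.04 (adjusted p = 7.02e-06), and Got1, its partner in the malate-aspartate shuttle, 26.3 to 30.6 RPKM (median 29.3) at day 3 and 35.1 to 51 RPKM (median 45.4) at days 6–7. Sucla2 and Pdha1, subunits of a cycle enzyme and of pyruvate dehydrogenase, changed by 0.38 ± 0.04 and 0.31 ± 0.03. Glud1, the mouse glutamate dehydrogenase, was at 42 to 47.1 RPKM (median 46.2) at day 3 and 49.6 to 56 RPKM (median 51.8) at days 6–7, a change of 0.22 ± 0.04. Adding the tissue covariates left 18 higher and 1 lower with a median of 0.20, and mice 5 and 34 alone gave 14 and 1 with a median of 0.21.

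Among 19 glycolytic genes 14 rose and 0 fell (median 0.26). Eno2, the enolase of neurons, measured 27.8 to 33.8 RPKM (median 31) at day 3 and 44 to 66.2 RPKM (median 55.7) at days 6–7, and Aldoc, the aldolase of astrocytes, 25.8 to 34 RPKM (median 29.9) at day 3 and 44 to 77.8 RPKM (median 56.2) at days 6–7. Tpi1 changed by 0.47 ± 0.04 and Aldoa by 0.71 ± 0.07. In the other 2 fits the list had 10 higher and 1 lower (median 0.27, tissue covariates) and 9 higher and 0 lower (median 0.25, mice 5 and 34 alone). In the nuclear oxidative phosphorylation list 30 of 50 rose and 0 fell, with a median of 0.16. Cox8a, a subunit of cytochrome c oxidase, was at 136 to 166 RPKM (median 141) at day 3 and 174 to 209 RPKM (median 199.6) at days 6–7, while Uqcrfs1, Atp5d and Sdha, of complexes III, V and II, changed by 0.22 ± 0.03, 0.26 ± 0.04 and 0.28 ± 0.04. Higher and lower members numbered 20 and 0 with the tissue covariates (median 0.11), and 9 and 0 with mice 5 and 34 alone (median 0.12).

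Genes encoded by the mitochondrial genome rose in 7 of 8 tested cases (median 0.33). The 13 mitochondrial rows made up 6.1% to 6.84% of the RPKM sum at day 3 (6.48% ± 0.25, SD, n = 7) and 7.14% to 8.68% at days 6–7 (7.99% ± 0.60, SD, n = 7), without overlap (exact permutation test over all divisions of the 14 mice, two-sided p = 0.000583, the smallest it can give). Mice 5 and 34 had the lowest shares of days 6–7, and the share was not compared with these mice alone. The share was 8.38% to 11.2% at days 10–12 and 11.5% to 12.7% at days 21–34. mt-Nd5, a subunit of complex I, measured 1013 to 1187 RPKM (median 1115) at day 3 and 1248 to 1590.0 RPKM (median 1442) at days 6–7, and mt-Co1, of complex IV, 3879 to 4190.0 RPKM (median 3992) at day 3 and 4574 to 5428 RPKM (median 4974) at days 6–7. After the tissue covariates were added 6 members passed as higher and 0 as lower (median 0.23), against 2 and 0 with mice 5 and 34 alone (median 0.19).

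Cytosolic ribosomal proteins fell: 33 of 40 were lower and 0 higher, with a median of −0.27. Rplp0 of the large subunit measured 215 to 249 RPKM (median 229) at day 3 and 163 to 194 RPKM (median 175) at days 6–7, a change of −0.39 ± 0.04 (adjusted p = 7.68e-06). Rpl7 of the large and Rps3 of the small subunit changed by −0.39 ± 0.03 and −0.39 ± 0.04. The 3 genes did not overlap between ages, passed in all 3 fits, and may share reads with processed pseudogenes. With the tissue markers as covariates 0 passed as higher and 17 as lower (median −0.16), and with mice 5 and 34 alone at days 6–7 0 and 16 (median −0.20).

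Of 22 chromatin genes 14 fell and 3 rose (median −0.21). Ezh2, the methyltransferase of Polycomb complex PRC2, measured 4.75 to 7.6 RPKM (median 5.73) at day 3 and 2.21 to 3.39 RPKM (median 2.8) at days 6–7, a change of −0.95 ± 0.10, and Hdac2, a histone deacetylase, 33.8 to 38 RPKM (median 35.4) at day 3 and 20.7 to 29 RPKM (median 24.7) at days 6–7. Smarca4 and Smarcc1, of the BAF remodelling complex, changed by −0.40 ± 0.04 and −0.29 ± 0.03. The maintenance methyltransferase Dnmt1 fell (−0.31) while Dnmt3a, which sets new methylation, rose (0.55). The fit with tissue covariates called 2 members higher and 10 lower (median −0.23), and the fit with mice 5 and 34 alone called 1 and 7 (median −0.21).

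The change was then compared between genotypes, lines and sexes by interaction terms in limma. Of 15185 genes, 0 (0%) differed between genotypes, 0 between lines and 0 between sexes at adjusted p below 0.05. At an unadjusted p below 0.05 there were 366, 779 and 831 genes. With no difference at all, a fraction of 0.05 of the 15185 genes would be expected below this level. The smallest adjusted p was 0.735 for genotype, in a row without a symbol, 0.197 for line, shared by Gm23851, Gm15672, Gpr6 and Strip2, and 0.834 for sex, shared by Git1, Zdhhc21 and Gm10169. Gpr6, an orphan receptor, had a change larger by 1.61 ± 0.26 in line b than in line a. Each age held 3 or 4 mice of each genotype, line and sex.

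The change from day 3 to days 6–7 was also set against that from days 6–7 to days 10–12, in 23 mice. The first minus the next change was above 0 in 1065 genes (7.01%) and below 0 in 727 (4.79%), with 4284 genes at an unadjusted p below 0.05. Cntn1, an adhesion protein of axons, had the smallest p. It measured 35.1 to 46.5 RPKM (median 40.8) at day 3 and 65.8 to 87.8 RPKM (median 76.1) at days 6–7, then had a median of 65.3 RPKM at days 10–12, a difference between the changes of 1.07 ± 0.10 (adjusted p = 2.15e-05). Map1b, a microtubule protein of growing axons, was at 269 to 292 RPKM (median 281) at day 3 and 224 to 275 RPKM (median 251) at days 6–7 and had a median of 144 RPKM at days 10–12, a difference of 0.65 ± 0.09 in which the later fall was larger. Ogfod1, a hydroxylase of a ribosomal protein, and Zfp691, a zinc finger protein, went the other way, at −1.05 ± 0.11 and −1.06 ± 0.14. Ogfod1 stood at 4.42 to 5.51 RPKM (median 4.89) at day 3 and 4.51 to 6.41 RPKM (median 5.38) at days 6–7 and had a median of 13.8 RPKM at days 10–12. Among lists, 10 of 29 immature neuron genes and 12 of 23 cholesterol synthesis genes had a first change above the next, with 0 in the other direction for both. These 2 lists were picked after the values were seen. Other lists had members in both directions, with 7 above and 2 below for astrocytes and 8 and 1 for axon guidance. The numbers were 2 and 6 for the postsynaptic density and 4 and 6 for channels. A first change above the next can also mean a larger later fall, as for Map1b. All 4 genes kept their call without each mouse in turn, but without mouse 35 the counts were 457 and 330, and without mouse 6 they were 542 and 408. Without mouse 8 the counts were 684 and 484, and without mouse 33 the first was 675. Both changes share the 7 mice of days 6–7, including those with markers of neighbouring tissue, and the intervals are of unequal length.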

How the data were processed

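Per the submitters' processing notes, the authors aligned the polyA reads to mm9 with STAR. The deposited values are RPKM, in 1 table for all mice. The version of STAR, the gene annotation and the counting are not given in the sources. The table has 18610 rows, and the GENCODE vM21 annotation gave symbols for 17734 identifiers. No coordinates in mm9 are given.

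Genes that reached 0.5 RPKM in 7 or more of the 14 mice (15185 genes, the same in every fit except the 2 other filters) were fitted as log2(RPKM + 0.5) in limma 3.58.1 (R 4.3.3) with a mean-dependent prior variance, genotype and line as covariates, two-sided tests, and Benjamini-Hochberg adjustment at 0.05. A pseudocount understates changes of low genes. Interactions used the same mice, and the comparison with the next interval used 23. The mitochondrial share was compared by an exact permutation test. The fit was tested on simulated data. Python 3.11.15, pandas 2.3.3 and matplotlib 3.10.9 made tables and figures. The labels tell mice apart by number, so replicates are separate animals and no numbers are shared between groups.

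The comparison, its members and the 34 gene lists (849 entries) were chosen with earlier results of these data known, and the tissue marker sets after the values were seen. Lists are described by counts and medians, with no test of the list. Named genes are the 12 largest rises and 12 largest falls, up to 4 members of each list with the smallest p, the 4 smallest p of each interaction and of the interval difference, and 11 fixed genes; some genes this rule picks are not reported here. Other list members beside them were named after their values were seen. Alternatives varied the pseudocount, filter, scaling, prior, weights, covariates and mice.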

Additional observations from a re-analysis of the deposited data

Results flagged for a closer look

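In 16 of 362 groups of 7 mice (4.42%), 1 mouse lay far from the other 6, by the ratio of its gap to the group's range (Dixon's test at 95%), where chance alone gives about 1 in 20. At day 3, mouse 1 was high for C1ql1 (3.968 RPKM), Vgf (25.22) and Mir219a-2 (1.976) and low for Tmem119 (0.8692). The same mouse had the highest sum of hypothalamic markers at day 3, 26.6 RPKM, and whether this bears on the 4 genes was not tested. Other mice of day 3 stood apart for Uqcrfs1 (51.5 RPKM, mouse 4), Mdh1 (88.63, mouse 2) and Drd1 (6.428, mouse 30). At days 6–7, mouse 35 was high for Slc6a4 (10.41 RPKM), the serotonin transporter of raphe neurons, and Tspan2 (19.66). Mouse 8 was high for B2m (48.72 RPKM), and mouse 7 for mt-Nd1 (3687). Mouse 5 was high for Oxct1 (173.5 RPKM), Eomes (3.304) and Cdhr1 (21.67), the last of these a gene of olfactory bulb output neurons. Mouse 34 was high for Plxna3 (24.34 RPKM) and low for Pdyn (3.117).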

How the results depend on the processing

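The counts of 2736 genes higher and 3828 lower stayed within 1.5 times under the other pseudocounts, filters, scalings, prior, array weights, no covariates, sex as covariate, all 59 mice and day 6 alone, and were 3226 and 3102 with median-ratio scaling, and were 2400 to 2991 and 3365 to 3908 without 1 mouse. With fewer mice they were 1638 and 2421 (controls), 982 and 913 (transgenics), 987 and 1111 (line a), and 2487 lower (line b). Among alternatives chosen after seeing the data, they were 1620 and 2438 with a neuroblast covariate. Other such alternatives gave 1743 and 2453 with thalamus, midbrain and hypothalamus covariates, and 1060 and 1253 with mice 5 and 34 alone. Of the named genes called in either fit, only Hspb3 changed sign with mice 5 and 34 alone, to 0.051. Grin2b, called in neither, changed sign as well. Of 180 named genes followed, 158 passed in 14 mice. The calls of 54 were lost with mice 5 and 34 alone, of 49 in line a, 44 in transgenics, 34 with the tissue covariates, 28 with the neuroblast covariate, 27 in controls, 18 in line b and 1 to 5 without any 1 mouse. The count of genes that differed between genotypes was 0 to 1 and between lines 0 to 1 without 1 mouse, and between lines 2 at a pseudocount of 0.1. The difference from the next interval gave 457 to 1492 and 330 to 1039 genes without 1 mouse, and 2322 and 1630 with array weights; the cause was not tested. The rise of the mitochondrial share, 1.52 percentage points, was 1.40 to 1.66 without 1 mouse. It was largest without mouse 5 (1.66) and without mouse 34 (1.61), whose shares were thus the lowest of days 6–7. The share was not compared with mice 5 and 34 alone or with tissue covariates. Whether its rise depends on neighbouring tissue was not tested. No paired analysis was possible because each mouse has a number of its own. Genes near 0.5 RPKM rest on few reads, and rows of short RNAs such as Mir219a-2 do so at higher RPKM too.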

Other observations

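Smaller groups changed less evenly. Of 23 cholesterol synthesis genes 5 fell and 3 rose, with a median change of 0.01. Dhcr7, of the last step of synthesis, measured 14.6 to 18.5 RPKM (median 17.2) at day 3 and 18.6 to 22.6 RPKM (median 19.3) at days 6–7 without overlap (limma adjusted p = 0.000571), and Acat2, which makes the precursor acetoacetyl-CoA, 33.6 to 38.7 RPKM (median 36.4) at day 3 and 23.1 to 34.5 RPKM (median 28.1) at days 6–7. Adding the tissue covariates left 7 higher and 0 lower with a median of 0.05, and mice 5 and 34 alone gave 4 and 0 with a median of 0.07. Oxct1 and Slc16a1, the enzyme that activates ketone bodies and the transporter that imports them, rose to 153 and 17.2 RPKM (median of days 6–7), from 119 and 11.8, and passed in all 3 fits. The list of ketone body and fatty acid use had 4 higher and 1 lower of 16.

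Of 17 genes of insulin-like growth factor signalling 6 fell and 1 rose. Igf1r, the receptor, measured 8.09 to 10.4 RPKM (median 9.65) at day 3 and 5.25 to 7.18 RPKM (median 6.13) at days 6–7 without overlap. The RNA-binding proteins Igf2bp2 and Igf2bp3 changed by −0.81 ± 0.12 and −0.61 ± 0.08, and all 3 passed in all fits. In the other 2 fits the list had 0 higher and 7 lower (median −0.22, tissue covariates) and 0 higher and 6 lower (median −0.22, mice 5 and 34 alone). Of 15 genes known to respond to thyroid hormone 7 rose and 1, the cold-induced Rbm3, fell. Kcnj10, the potassium channel of astrocytes, was at 5.67 to 8.01 RPKM (median 7.26) at day 3 and 11.6 to 20.7 RPKM (median 14.3) at days 6–7 without overlap.

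In the list of meninges and extracellular matrix 1 of 27 rose and 2 fell, in the interferon list 3 of 9 rose and 2 fell, in the striatum list 1 of 14 rose and 1 fell, and in the list of hypothalamus, thalamus and choroid plexus 1 of 12 fell. That gene was Ttr, the main transcript of choroid plexus, at 1.51 to 529 RPKM (median 364) at day 3 and 0.361 to 547 RPKM (median 0.909) at days 6–7. Its change of −4.11 ± 1.48 was the largest fall of all named genes, and it did not pass with the tissue markers as covariates, at −4.87 ± 2.12 (adjusted p = 0.111), or with mice 5 and 34 alone, at −3.89 ± 1.81 (adjusted p = 0.186). Hspb3, a small heat shock protein, changed by −1.55 ± 0.46 in 14 mice and by −0.23 ± 0.31 (adjusted p = 0.617) with the covariates.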
